A study of Homo sapiens with 6 samples.

Results

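The Krueppel-like factors are zinc-finger transcription factors that bind GC boxes and CACCC elements. The 10 followed here (KLF2, KLF3, KLF4, KLF5, KLF6, KLF7, KLF9, KLF10, KLF11 and KLF13) are 10 of the 54628 gene rows in the count tables, and all 10 passed the filter on low counts. The group was chosen by its measured values in this same comparison, because KLF2 was strongly lower, so the members' differences between the groups are given as a description. No p is given for a member, and the number of members called in the fit over all genes is set beside the share of all genes called and supports nothing. The cells were of U87, an established glioblastoma line of human origin, taken out of a co-culture with a cell sorter before their poly-A RNA was sequenced. The labels name 3 libraries of cycling cells that had received mitochondria (received) and 3 of cycling cells that had not (not received), and the series title speaks of a shuttle of mitochondria from astrocytes. The labels give no treatment, dose, time or genetic change for either group, and no rule by which a cell counted as cycling. The labels do not say whether replicates came from separate cultures, and a p-value therefore covers only the spread between these libraries, which may be technical.

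KLF proteins share a DNA-binding end of 3 C2H2 zinc fingers and differ in the rest of the protein, by which they fall into classes. KLF2, KLF4, KLF5, KLF6 and KLF7 are mostly described as activators that can recruit acetyltransferases. KLF3 binds the corepressor CtBP, and KLF9, KLF10, KLF11 and KLF13 bind the corepressor Sin3A. KLF2 and KLF4 are best known from endothelium, where the kinase cascade of MEK5 and ERK5 switches them on through MEF2 factors and where they hold down inflammatory genes. KLF6 was named as a tumour suppressor gene, and KLF4 is one of the reprogramming factors.

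The start regions of 4 members of the activator class are shown because KLF2, KLF5 and KLF6 were the members with lower levels in received cells, while KLF4, the closest relative of KLF2 by function, stood at like levels. Each sequence runs from 250 bases before to 50 bases after a RefSeq transcription start (GRCh38.p14), 5′ to 3′ on the gene's strand. Capitals mark the GC box GGGCGG, the CACCC element, each on either strand, and the MEF2 motif, which is the 10-base A- and T-rich capital run in KLF2. KLF5 has 2 listed starts, and the one with more G and C is printed.
KLF2 (chr19:16324576-16324875, plus strand): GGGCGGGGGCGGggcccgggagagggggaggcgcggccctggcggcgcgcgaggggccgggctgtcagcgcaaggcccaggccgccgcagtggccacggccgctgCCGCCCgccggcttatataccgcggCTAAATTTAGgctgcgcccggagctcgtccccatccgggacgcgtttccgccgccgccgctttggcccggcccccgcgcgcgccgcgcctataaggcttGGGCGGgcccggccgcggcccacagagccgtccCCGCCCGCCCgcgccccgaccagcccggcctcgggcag
KLF5 (chr13:73058755-73059054, plus strand): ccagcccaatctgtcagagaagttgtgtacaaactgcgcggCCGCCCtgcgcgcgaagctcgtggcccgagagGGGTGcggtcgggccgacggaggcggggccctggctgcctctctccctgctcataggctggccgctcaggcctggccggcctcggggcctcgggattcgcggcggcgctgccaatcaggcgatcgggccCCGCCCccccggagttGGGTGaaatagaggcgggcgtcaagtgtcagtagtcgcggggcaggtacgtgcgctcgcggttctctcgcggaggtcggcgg
KLF6 (chr10:3785160-3785459, minus strand): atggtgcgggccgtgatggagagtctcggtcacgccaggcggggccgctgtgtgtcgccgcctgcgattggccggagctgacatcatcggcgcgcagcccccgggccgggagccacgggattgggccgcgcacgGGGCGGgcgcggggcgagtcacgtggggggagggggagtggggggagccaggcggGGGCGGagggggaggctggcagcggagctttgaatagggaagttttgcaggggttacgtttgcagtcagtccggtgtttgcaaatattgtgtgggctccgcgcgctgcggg
KLF4 (chr9:107489720-107490019, minus strand): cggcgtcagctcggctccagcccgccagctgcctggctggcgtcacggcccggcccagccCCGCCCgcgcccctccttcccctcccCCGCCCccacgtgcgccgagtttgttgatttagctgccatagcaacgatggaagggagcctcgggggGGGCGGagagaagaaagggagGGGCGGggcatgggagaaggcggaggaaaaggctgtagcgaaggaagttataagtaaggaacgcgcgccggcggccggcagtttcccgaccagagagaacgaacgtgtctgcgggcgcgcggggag

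The KLF2 window held 1 match to the MEF2 motif, CTAAATTTAG, a palindrome from base -120 to base -111 relative to the start (chr19:16324706-16324715). Of the 35116 start regions of 300 bases in the RefSeq table, 2.99% held a MEF2 match. Among the 8 members matched in that table and looked up, KLF2 was the one with a MEF2 match in its window. GGGCGG stood 6 times in the KLF2 window, 4 times in that of KLF4 and 2 times each in those of KLF5 and KLF6, and 45% of all start regions held it. CACCC stood in the printed KLF5 window 2 times and in 59.9% of all start regions. No CACCC element overlapped a GC box in the windows printed, and 2 of the 6 GC boxes of KLF2 overlapped each other. A match is a description of letters, and no match says only that these letters were not in this window.

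Libraries held 17879552 to 46392491 counts, and the 10 members together took 0.0395% to 0.0423% of them in received and 0.0453% to 0.0472% in not-received libraries. Not-received replicate 2 was the deepest library and stood apart from its group, with a chi-square per gene of 20.2 and 22.1 against the other two, where all other pairs within a group lay between 3.39 and 5.80. Levels below are CPM, read counts brought to a common library size with TMM factors. Across all 14100 genes tested, edgeR called 1298 higher and 1364 lower in received cells, 48.8% of the calls being higher, against 1683 and 1110 (60.3% higher) with scaling by library size alone.

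**Figure D1:**
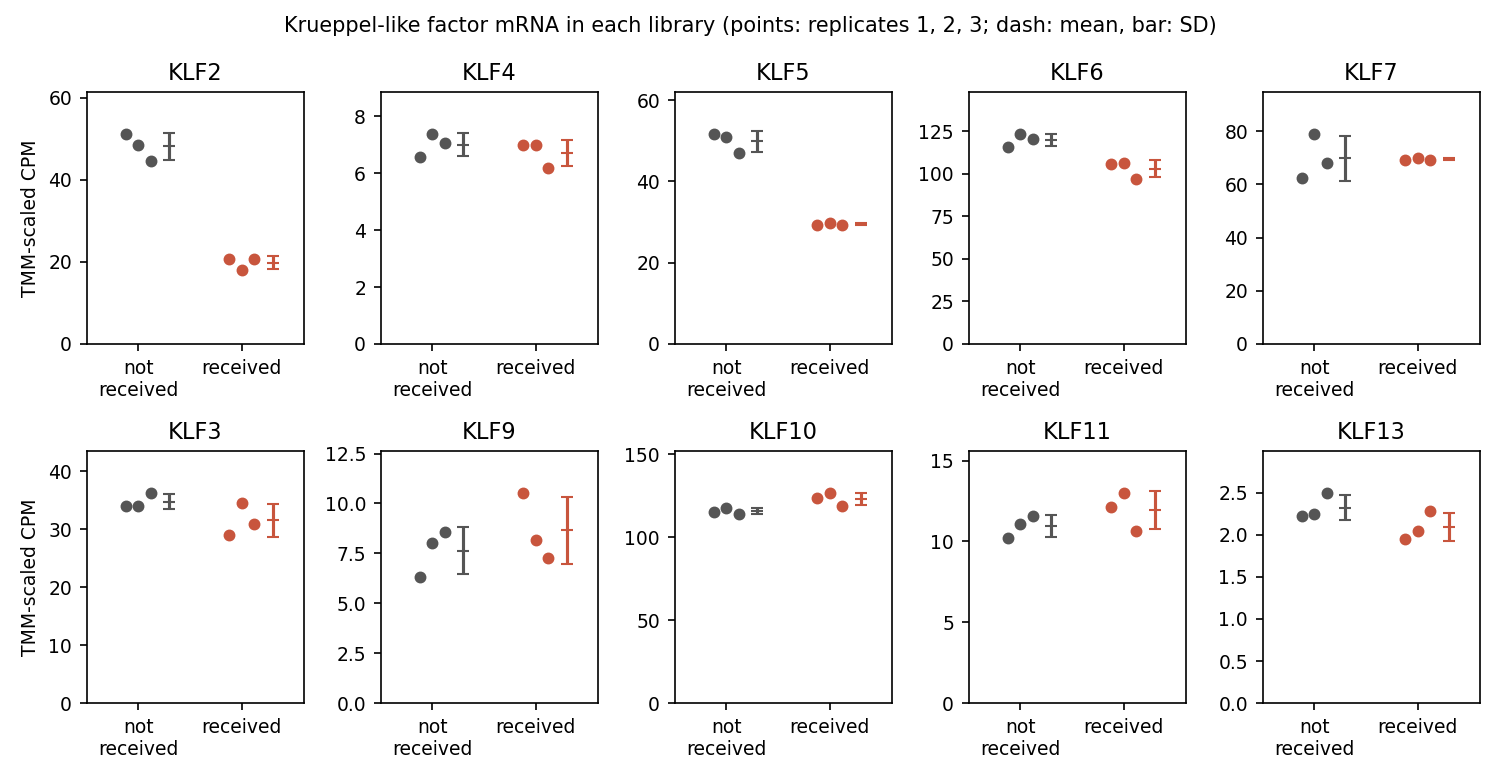
TMM-scaled CPM of each of the 10 Krueppel-like factors in the 3 not-received (grey) and 3 received (red) libraries, each axis starting at 0, with the mean (dash) and SD (bar). The KLF2 points sit between 44.6 and 51.2 CPM in not-received and between 18.0 and 20.8 CPM in received libraries, and the KLF5 and KLF6 points of the groups do not overlap either.

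In cells that had received mitochondria, KLF2, KLF5 and KLF6 mRNA was lower, KLF10 was slightly higher in every library, and the other 6 members overlapped between the groups. Past an adjusted p under 0.05 in the fit over all genes were 3 of the 10 members on the lower side, where 9.67% of all genes tested were called lower, and 0 on the higher side, where 9.21% were called (edgeR; 0 also at an unadjusted p under 0.05 and 0 by DESeq2). Since KLF2 was picked on this contrast, nothing is read from that share. The received libraries lay wholly below the not-received ones for 3 members, as for 19.5% of all genes, and wholly above for 1 member, as for 19.5%. In a bulk sample, fewer cells that express a gene and less RNA in each cell cannot be told apart.

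KLF2, the shear-stress-induced activator that keeps endothelium and T cells quiescent, stood at 51.2, 48.6 and 44.6 CPM in not-received replicates 1, 2 and 3 and at 20.7, 18.0 and 20.8 CPM in received replicates 1, 2 and 3. Every received library was below every not-received library, and the spread inside each group was small beside the gap. The means were 48.1 ± 3.30 and 19.8 ± 1.60 CPM (SD, n = 3 each), 2.43-fold lower in received cells (log2 fold change -1.28 ± 0.09 SE). Without not-received replicate 2 the log2 fold change was -1.27. As a share of the counts of all 10 members, KLF2 took 9.70% to 11.2% in not-received libraries and 4.33% to 5.29% in received libraries.

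KLF5, a growth-promoting activator of epithelia and smooth muscle, stood at 51.7, 50.9 and 46.9 CPM in not-received and at 29.3, 29.7 and 29.2 CPM in received libraries. The received libraries were almost level with each other and all below the not-received ones. The means were 49.8 ± 2.55 and 29.4 ± 0.258 CPM, 1.69-fold lower (log2 fold change -0.76 ± 0.07 SE), a difference smaller than that of KLF2. KLF6, an injury-induced activator, stood at 116, 123 and 120 CPM in not-received and at 106, 106 and 97.1 CPM in received libraries. It differed less than KLF2 or KLF5, with a log2 fold change of -0.22 ± 0.06 SE, or -0.17 without received replicate 3.

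KLF4, which shares many endothelial targets with KLF2, did not go with it: it stood at 6.57, 7.38 and 7.05 CPM in not-received and at 6.98, 6.97 and 6.17 CPM in received libraries. The groups overlapped, with a log2 fold change of -0.06 ± 0.13 SE, at 111 to 335 counts a library. KLF7, a factor of neuronal outgrowth, stood at 62.5, 78.9 and 67.9 CPM against 69.3, 70.0 and 69.3 CPM (log2 fold change -0.01 ± 0.08 SE). Its highest value was that of not-received replicate 2, the library that stood apart, and its received values nearly coincided.

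The corepressor-binding members differed by less than KLF6 in size or overlapped between the groups. KLF3, a CtBP-binding repressor of adipose and blood lineages, stood at 34.0, 33.9 and 36.2 CPM in not-received and at 29.03, 34.5 and 30.9 CPM in received libraries, with 1 received library inside the not-received range (log2 fold change -0.14 ± 0.08 SE). KLF10, an early gene of TGF-beta signalling also called TIEG1, stood at 115, 118 and 114 CPM in not-received and at 124, 127 and 119 CPM in received libraries. All received values were above all not-received ones, but the log2 fold change was 0.09 ± 0.06 SE, and 0.13 with scaling by library size alone. KLF11, its relative TIEG2, lay between 10.2 and 11.6 CPM in not-received and between 10.7 and 13.0 CPM in received libraries (log2 fold change 0.12 ± 0.11 SE).

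KLF9, a target of glucocorticoid and thyroid hormone receptors, stood at 6.30, 8.02 and 8.58 CPM in not-received and at 10.5, 8.15 and 7.28 CPM in received libraries. It was the most variable member, with a coefficient of variation between replicates of 15.5% and 19.3%, and received replicate 1 was its highest library (log2 fold change 0.18 ± 0.16 SE). KLF13, a factor of lymphocytes and heart development, was the lowest, at 38 to 102 counts a library. It stood at 2.23, 2.25 and 2.49 CPM against 1.95, 2.04 and 2.28 CPM, with overlap (log2 fold change -0.15 ± 0.22 SE). At that depth a difference of the size seen for KLF6 could not be seen for KLF13, since its standard error was as large. KLF4, KLF9 and KLF11, with standard errors of 0.13, 0.16 and 0.11, could also hide a difference of that size.

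Levels of different genes were compared per kilobase of the merged exons of GENCODE release 29; the labels do not name the annotation used for counting, so these levels are approximate. In not-received cells the order was KLF10 (28.9 ± 0.436 CPM per kb), KLF2 (23.9 ± 1.64), KLF6 (19.5 ± 0.604), KLF5 (12.8 ± 0.655), KLF7 (7.53 ± 0.903) and KLF3 (5.51 ± 0.203), followed by KLF11, KLF4 and KLF9 at 1.47 to 2.39 and KLF13 at 0.247. Neighbours in this order did not overlap over the 3 libraries. In received cells KLF6 (16.8 ± 0.831 CPM per kb) stood above KLF2 (9.82 ± 0.795), so that KLF2 passed from rank 2 to rank 3. There KLF5 (7.56 ± 0.0663) and KLF7 (7.51 ± 0.0426) overlapped, as did KLF4 (1.83 ± 0.127) and KLF9 (1.67 ± 0.323). KLF3, KLF7, KLF11 and KLF13 overlap other annotated genes in GENCODE, and whether the counting used the strand is not given, so part of their counts is uncertain.

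KLF2 transcripts are abundant in endothelium, lymphocytes and myeloid cells, so markers of these and of other brain cells were set beside the result. The 7 endothelial markers summed to 3.11 to 4.61 CPM in received and 3.59 to 4.89 CPM in not-received libraries. Of 6 lymphocyte markers, 4 had 0 counts in all 6 libraries, among them the T cell genes CD3E and CD3D and the B cell gene MS4A1, and the sum was at most 1.82 CPM. Of 7 myeloid markers, AIF1 and TYROBP had 0 counts, PTPRC had at most 2 counts in a library, and the sum of 494 to 508 CPM in received against 370 to 410 CPM in not-received libraries was nearly all CD68, a lysosomal protein gene (472 to 488 against 349 to 390 CPM). CD68 was called higher (log2 fold change 0.36 ± 0.06 SE, edgeR adjusted p = 8.83e-04). CSF1R, on the same list, was detected in every library. It stood at 19.9 to 22.2 CPM in received and 19.8 to 21.0 CPM in not-received libraries and was not called. Of 8 astrocyte markers, AQP4, ALDH1L1 and GJB6 had 0 counts and GFAP 4 to 13, and the sum, mostly ALDOC, was 71.2 to 82.4 CPM in received and 84.3 to 93.9 CPM in not-received libraries. The astrocyte marker SLC1A3 was also detected, at 14.4 to 16.3 CPM in received and 16.1 to 18.5 CPM in not-received libraries, and was not called. Of 6 neuronal and oligodendrocyte markers, MOG had 0 counts and the sum was 9.68 to 12.5 against 14.6 to 14.7 CPM. Of these markers 2 were tested, and 1 was called lower (edgeR, adjusted p under 0.05). A count of 0 allows up to 3 counts, or 0.0647 to 0.168 CPM depending on the library, and such limits cover counting error only. The 8 mesenchymal glioma markers were all detected and tested, with VIM at 3556 to 4766 CPM. Of these, VIM (log2 fold change 0.26) and NES (0.46) rose, and CHI3L1 (-0.90), CD44 (-0.23) and CAV1 (-0.21) fell (edgeR, adjusted p under 0.05), and their part in the members' differences was not tested.

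The rest of the family was tested, but its list was also chosen with earlier results of these data known, so it is not an independent check. Of 17 other KLF and SP genes, 10 passed the filter, 1 was lower and 0 were higher (edgeR; 0 higher at an unadjusted p under 0.05 and 0 by DESeq2). The median log2 fold change of the 10 was -0.04, beside -0.00124 for all genes tested, of which 9.67% were lower and 9.21% higher. SP2, a relative of SP1 that binds GC-rich promoters with NF-Y, was the one that fell: it stood at 30.6, 34.4 and 29.6 CPM in not-received and at 22.7, 20.8 and 24.2 CPM in received libraries. That is a log2 fold change of -0.49 ± 0.09 SE (edgeR quasi-likelihood adjusted p = 0.00183), with no overlap. The general GC-box factors SP1 (-0.05 ± 0.08 SE) and SP3 (0.02 ± 0.06 SE) and the repressor KLF16 (-0.02 ± 0.10 SE) were not called. KLF12, the CtBP-binding relative of KLF3, had a log2 fold change of -0.21 ± 0.08 SE (edgeR adjusted p = 0.0723). The less studied KLF17 (-0.28 ± 0.26 SE), SP4 (0.15 ± 0.11 SE), SP5 (-0.60 ± 0.40 SE), SP6 (0.05 ± 0.11 SE) and SP8 (0.39 ± 0.22 SE) were not called either. KLF8, also CtBP-binding, had 7 to 24 counts a library and was not tested, nor were KLF1, KLF14, KLF15, KLF18, SP7 and SP9.

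**Figure D2:**
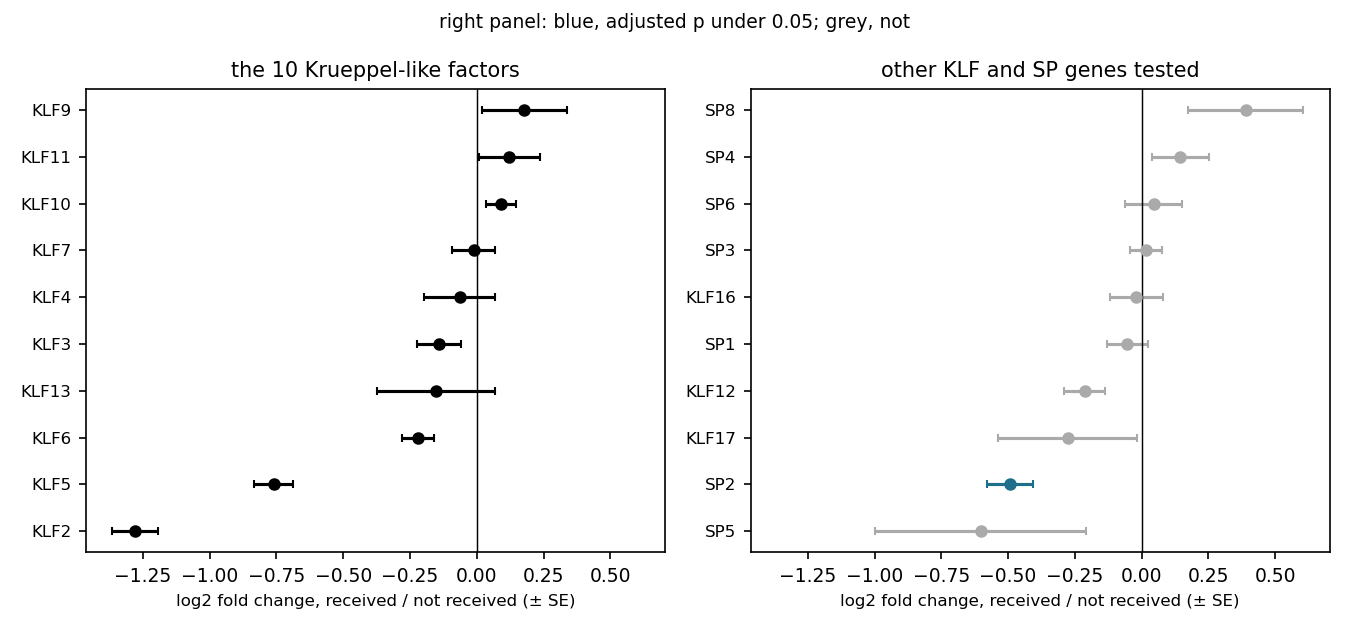
Log2 fold change, received over not received, with its SE, for the 10 members (left) and the other KLF and SP genes tested (right); members are drawn in black without a call, and in the right panel a blue point has an adjusted p under 0.05 and a grey point does not. KLF2 (-1.28) and KLF5 (-0.76) lie farthest to the left, SP2 (-0.49) is the blue point in the right panel, and SP5 (-0.60), not called, has a wide SE.

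The genes of the cascade that switches on KLF2 and KLF4 in endothelium were read next. Of 14 genes listed for the MEK5-ERK5-MEF2 pathway, its deacetylases and the CCM complex, 13 were tested, 5 fell and 1 rose, with a median log2 fold change of -0.18. Among all genes tested, 9.67% fell and 9.21% rose, with a median of -0.00124. The list mixes the cascade with deacetylases that silence MEF2 factors, so its counts and median give no direction of the pathway. The mRNA of a kinase does not measure its activity, and a link of these genes to KLF2 was not tested. MAP3K3, the kinase MEKK3 at the head of the cascade, stood at 40.9, 44.4 and 43.7 CPM in not-received and at 30.4, 34.3 and 35.8 CPM in received libraries (log2 fold change -0.36 ± 0.08 SE, edgeR adjusted p = 0.00712). The groups did not overlap. MAP2K5, which encodes MEK5 itself, had a log2 fold change of -0.29 ± 0.08 SE (edgeR adjusted p = 0.0176) and MAPK7, which encodes ERK5, of -0.32 ± 0.08 SE (edgeR adjusted p = 0.0109), 2 genes named after their values were seen. MAPK7 stood at 58.0, 53.1 and 49.6 CPM in not-received and at 42.9, 41.4 and 44.5 CPM in received libraries.

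The list holds 3 class II deacetylases, which bind and silence MEF2 factors. Of these, 2 fell: HDAC5 by 0.48 ± 0.08 SE on the log2 scale, from 33.2 to 23.8 CPM (edgeR adjusted p = 0.00108), and HDAC7, named after its value was seen, by 0.24 ± 0.07 SE (edgeR adjusted p = 0.0308). HDAC4 was not called (log2 fold change 0.03 ± 0.08 SE), and its groups overlapped. The single gene that rose was MEF2C, a factor that binds the MEF2 motif: it stood at 1.36, 2.09 and 2.40 CPM in not-received and at 4.09, 3.43 and 3.00 CPM in received libraries (log2 fold change 0.84 ± 0.25 SE, edgeR adjusted p = 0.0311). The more abundant MEF2A (-0.18 ± 0.10 SE) and MEF2D (-0.12 ± 0.07 SE) were not called. The 5 decreases were 2, 2 and 3 without received replicate 1, 2 and 3, and the MEF2C call was lost without not-received replicate 1 or without any 1 received library (highest edgeR adjusted p = 0.139). HDAC7 was not called with scaling by library size alone, without not-received replicate 1 or without any 1 received library (highest edgeR adjusted p = 0.165). HDAC5 stayed below the threshold of 0.05 under all 12 alternatives, and MAP3K3 under 11. MAP2K5 was not called without received replicate 2 or 3 (highest edgeR adjusted p = 0.102). MAPK7 was not called without received replicate 1 or 2 (highest edgeR adjusted p = 0.0740).

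The next list holds the mRNAs of proteins that KLF factors work through or that degrade them. Of 21 genes of corepressors, acetyltransferases and ubiquitin ligases, all tested, 4 fell and 1 rose, and the median log2 fold change was -0.02. Over all genes tested, 9.67% fell and 9.21% rose. The acetyltransferase genes CREBBP (log2 fold change -0.41 ± 0.11 SE, edgeR adjusted p = 0.0252) and KAT2B (-0.33 ± 0.09 SE, edgeR adjusted p = 0.0274) fell. CREBBP stood at 45.0, 57.0 and 41.4 CPM in not-received and at 38.0, 36.7 and 34.1 CPM in received libraries. Its highest value was that of not-received replicate 2, the library that stood apart, and its log2 fold change was -0.50 to -0.25 over the 12 alternatives. SMURF2, a ubiquitin ligase of SMAD proteins that also acts on KLF5, stood at 82.8, 88.3 and 89.0 CPM in not-received and at 71.1, 69.6 and 66.0 CPM in received libraries (log2 fold change -0.33 ± 0.06 SE, edgeR adjusted p = 0.00284). The Sin3A-complex gene SAP30 fell (-0.32 ± 0.08 SE) and the deacetylase gene HDAC2 rose (0.17 ± 0.06 SE), both named after their values were seen. The corepressor genes themselves, CTBP1 (0.02 ± 0.06 SE), CTBP2 (-0.13 ± 0.06 SE) and SIN3A (-0.05 ± 0.07 SE), were not called, nor was WWP1, a ligase of KLF2 and KLF5 (-0.02 ± 0.10 SE). Without received replicate 1, 2 and 3 the 4 decreases were 2, 1 and 1, and HDAC2 was not called without any 1 of them, without not-received replicate 1, with no low-count filter or with a replicate block. CREBBP was not called without any 1 received library, and KAT2B also not by DESeq2 or without not-received replicate 2. SMURF2 was called under all 12 alternatives.

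TGF-beta target genes, listed because KLF10 and KLF11 are early genes of that pathway, were read beside these members. Of 11 tested, 6 fell and 2 rose, and the median log2 fold change was -0.41. Among all genes tested, 9.67% fell and 9.21% rose. The inhibitory SMAD gene SMAD6 stood at 27.1, 25.4 and 20.1 CPM in not-received and at 7.91, 7.03 and 8.12 CPM in received libraries, a decrease of every received library below every not-received one (log2 fold change -1.65 ± 0.12 SE, edgeR adjusted p = 1.64e-06). SMAD7 fell by 0.91 ± 0.12 SE on the log2 scale (edgeR adjusted p = 1.64e-04) and CCN2, connective tissue growth factor, by 0.93 ± 0.09 SE (edgeR adjusted p = 1.62e-05). TAGLN, BAMBI and TGFBI also fell by 0.89, fell by 0.83 and fell by 0.41 on that scale, while PMEPA1 rose by 0.63 ± 0.10 SE, all named after their values were seen. SMAD6, SMAD7 and BAMBI are also targets of BMP signalling. These 8 calls were made under all 12 alternatives.

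**Figure D3:**
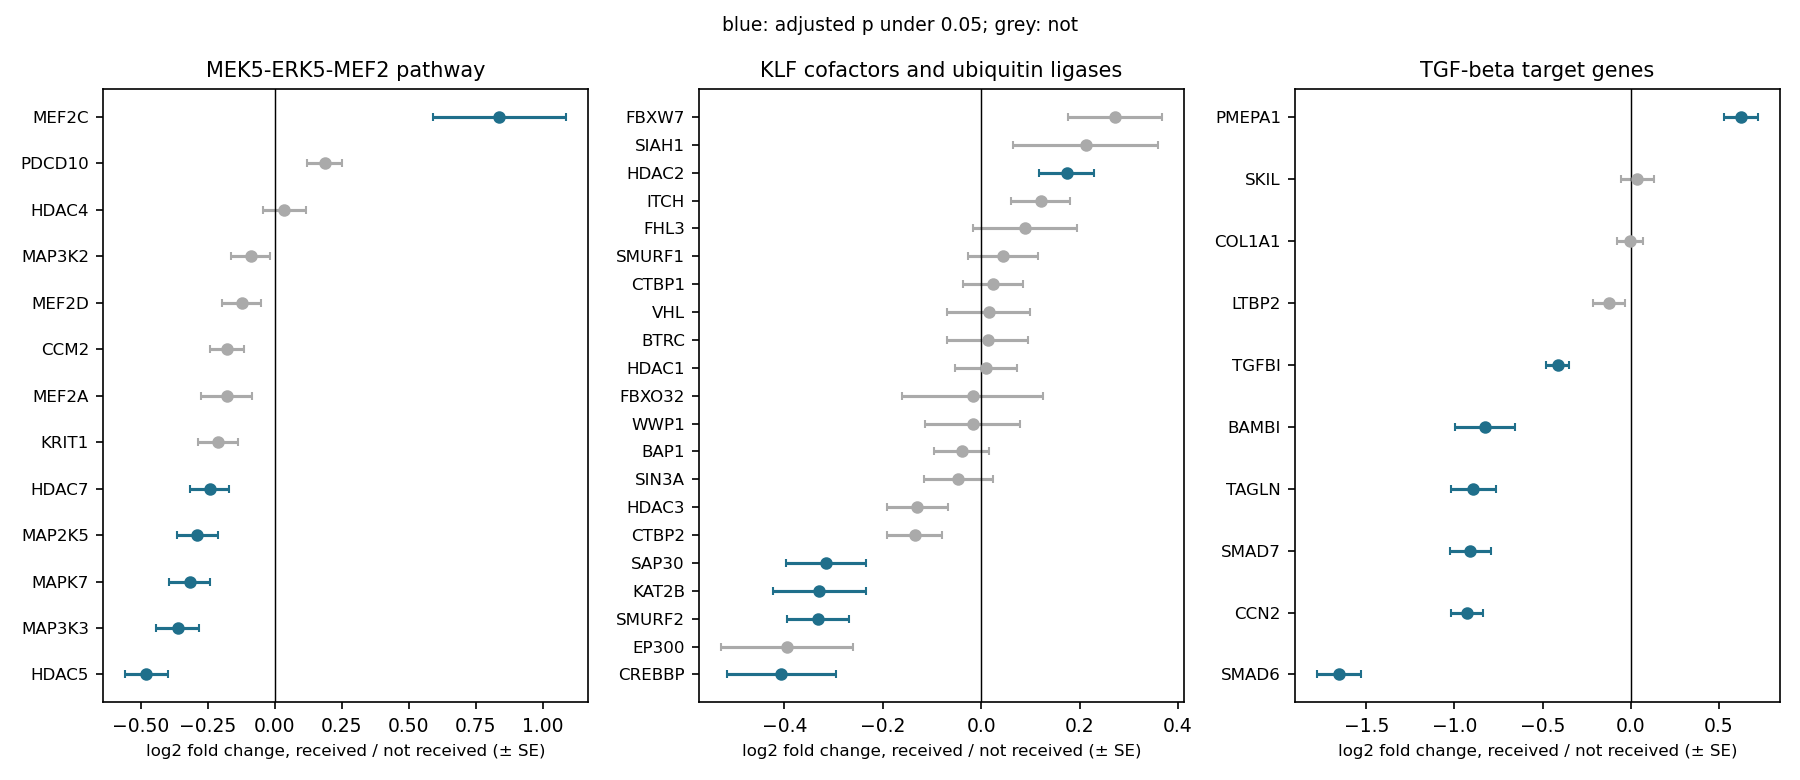
Log2 fold change, received over not received, with its SE, for the tested genes of the MEK5-ERK5-MEF2 pathway (left), of KLF cofactors and ubiquitin ligases (middle) and of TGF-beta targets (right, 10 of the 11 tested); blue points have an adjusted p under 0.05, and the horizontal scales differ. HDAC5 and MAP3K3 lie lowest on the left, MEF2C highest, and SMAD6 at -1.65 is the lowest on the right.

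Genes known from other cells as targets of KLF2 were then read. Of 10 genes known to be induced by KLF2 or KLF4, 8 were tested, 2 rose and 1 fell, with a median log2 fold change of 0.11. Among all genes tested, 9.21% rose and 9.67% fell. PLAT, tissue plasminogen activator, rose from 94.5 to 144 CPM (log2 fold change 0.60 ± 0.06 SE, edgeR adjusted p = 2.74e-05) and ASS1, argininosuccinate synthase, by 0.22 ± 0.06 SE (edgeR adjusted p = 0.0166). CCN3, a matricellular protein, fell by 0.36 ± 0.07 SE on the log2 scale (edgeR adjusted p = 0.00228). The defining endothelial targets were near the floor: NOS3 had 3 to 8 counts a library and was not tested, and THBD, thrombomodulin, stood at 0.435 to 0.947 CPM in not-received and at 0.966 to 1.67 CPM in received libraries (edgeR adjusted p = 0.0922). The ASS1 call was lost without not-received replicate 1 or without any 1 received library (highest edgeR adjusted p = 0.0787).

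Of 11 genes that KLF2 is known to hold down, 8 were tested, 4 rose and 1 fell, and the median log2 fold change was 0.57. By comparison, 9.21% of all genes tested rose and 9.67% fell. The inflammatory genes IL1B (log2 fold change 2.90 ± 0.19 SE, edgeR adjusted p = 4.08e-04), CXCL8 (1.73 ± 0.13 SE, edgeR adjusted p = 1.60e-04) and IL6 (1.34 ± 0.15 SE, edgeR adjusted p = 4.50e-05) were among the 4 on the list that rose. The list was written with earlier results of these libraries known, so its count is not independent evidence of its direction. EDN1, endothelin-1, is on the same list and fell, from 3.97, 3.37 and 2.54 CPM to 1.49, 1.07 and 1.45 CPM (log2 fold change -1.29 ± 0.25 SE, edgeR adjusted p = 0.00337), a gene named after its value was seen. KDR, the VEGF receptor (0.29 ± 0.12 SE), and F3, tissue factor (0.17 ± 0.12 SE), were not called. VCAM1 had at most 5 counts in a library and SELE had 0. ANGPT2, also not tested, had 1 to 38 counts a library. It stood at 0.0556 to 0.372 CPM in received libraries, below the 0.479 to 0.837 CPM in not-received libraries.

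**Figure D4:**
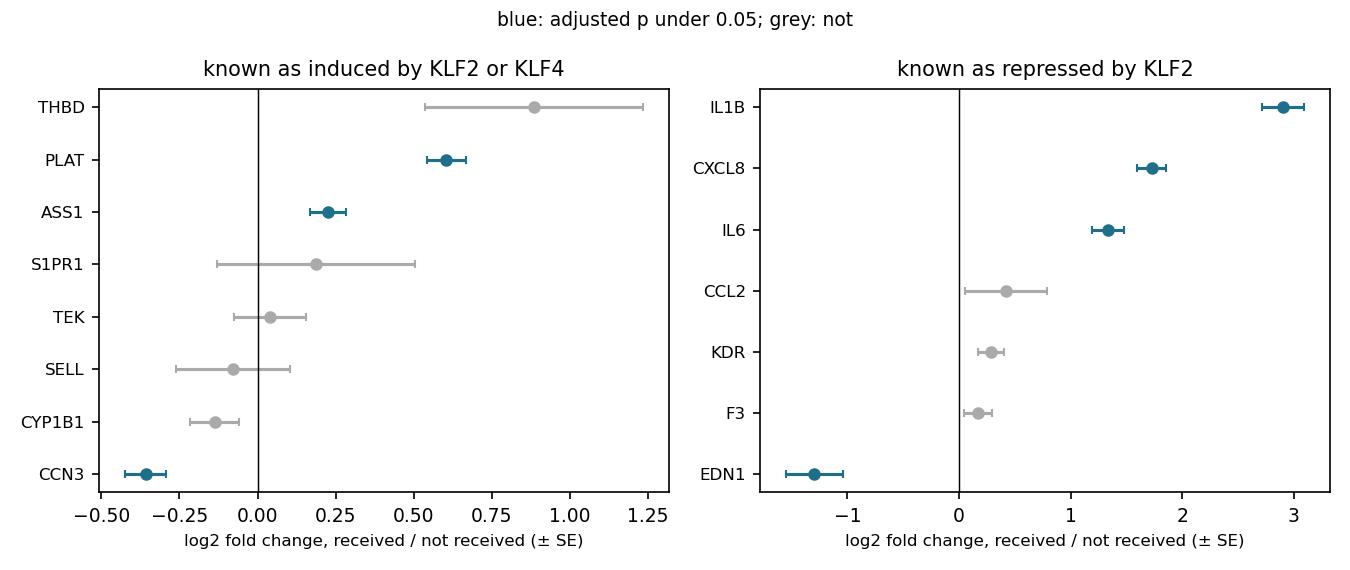
Log2 fold change, received over not received, with its SE, for the tested genes known as induced by KLF2 or KLF4 (left) and as repressed by KLF2 (right, 7 of the 8 tested); blue points have an adjusted p under 0.05, and the horizontal scales differ. On the right IL1B (2.90) is highest and EDN1 (-1.29) lowest, and on the left PLAT (0.60) and CCN3 (-0.36) are called in opposite directions.

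Several members are also early response genes, so the immediate early genes were read with them. Of 18, 16 were tested, 2 rose and 1 fell, with a median log2 fold change of 0.25. By comparison, 9.21% of all genes tested rose and 9.67% fell. JUNB rose by 0.36 ± 0.07 SE (edgeR adjusted p = 0.00381) and ATF3 by 0.33 ± 0.09 SE (edgeR adjusted p = 0.0244), and ZFP36, which degrades inflammatory mRNAs, fell by 0.42 ± 0.10 SE on the log2 scale (edgeR adjusted p = 0.0138). ATF3 was not called by DESeq2, without not-received replicate 1 or 2 or without any 1 received library, and ZFP36 was not called without received replicate 2 or 3. FOS, named after its values were seen, stood at 45.4 CPM in received replicate 1 and at 10.8 to 21.9 CPM in the other libraries, and FOSB at 8.84 CPM there against 0.335 to 2.06 CPM. In that library KLF2 stood at 20.7 CPM, between the other received libraries, while KLF9 was at its highest. Whether the early response bears on the members was not tested.

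Glucocorticoid receptor targets, listed for KLF9, split. Of 10, 9 were tested, 2 rose and 1 fell, with a median log2 fold change of -0.07. By comparison, 9.21% of all genes tested rose and 9.67% fell. CEBPD rose by 0.58 ± 0.08 SE (edgeR adjusted p = 3.49e-04) and the clock gene PER1 by 0.42 ± 0.08 SE (edgeR adjusted p = 0.00391), while TSC22D3, the glucocorticoid-induced leucine zipper, fell by 0.50 ± 0.11 SE on the log2 scale (edgeR adjusted p = 0.00709). FKBP5, a widely used readout of the receptor, was not called (-0.12 ± 0.08 SE, edgeR adjusted p = 0.326).

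Over the 6 libraries, the 5 genes of 11535 compared whose log2 CPM followed KLF2 most closely were LOXL1 and HSPA5 (Pearson r = 0.999 each), ZNF641, DUSP7 and DNAJB12 (r = 0.998 each). LOXL1 encodes a crosslinking enzyme of elastic fibres, HSPA5 the endoplasmic reticulum chaperone BiP, and DUSP7 a phosphatase of ERK kinases. The libraries form 2 groups, so r mostly follows the difference between them, and it is a description with no test. LOXL1 stood at 308, 305 and 289 CPM in not-received and at 188, 178 and 194 CPM in received libraries, in the same order within each group as KLF2. Among the members, KLF5 had the highest r with KLF2 (r = 0.99, with 44 genes above it), KLF4 had r = 0.31 and KLF10 had r = -0.87.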

How the data were processed

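The authors deposited unnormalized counts of reads for each gene symbol, 1 file per library. Per the labels' protocols, poly-A RNA was captured on poly-T beads, primed with random hexamers and read as paired ends on an Illumina NovaSeq instrument. DESeq and R 3.6.1 are listed in the submitters' processing notes. Not given in the sources used here were the aligner, counting program, build, annotation and strand setting. Groups came from the titles.

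In R 4.3.3, edgeR 4.0.16 kept 14100 of the 28833 genes that had a count (filterByExpr) and applied TMM scaling. The robust quasi-likelihood fit (glmQLFit, then glmQLFTest) was run with the group as the single term and Benjamini-Hochberg adjustment over all genes tested. Each SE was obtained as the size of the log2 fold change over the square root of its F statistic. No p is printed for a member. Alternatives were 2 other scalings, DESeq2 1.42.0, 2 other filters, the replicate number as a block, and leaving out each library.

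The members and the 8 gene lists were chosen with earlier results of these data known. Named from each list were up to 3 called genes with the largest absolute fold change whose average log2 CPM reached 1 (or, with no called gene, the one of smallest p), all tested members of the KLF and SP list, and the 5 genes most like KLF2, leaving out LOC and clone names. Any other gene named with a value, apart from cell type markers, was named after its value was seen. List counts and medians cover whole lists, including genes that are not named, some of which are not reported here. Start regions are from a RefSeq table (GRCh38.p14), and exon lengths from GENCODE release 29.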

Additional observations from a re-analysis of the deposited data

How the results depend on the processing

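Over the 12 alternatives, KLF2, KLF5 and KLF6 had log2 fold changes of -1.33 to -1.21, -0.80 to -0.72 and -0.24 to -0.17. The alternatives refit the same libraries, whose groups did not overlap for these genes, so the sign could hardly change. KLF2 was also picked on this contrast, so nothing is read from the kept direction. Members past the adjusted p threshold on the lower side were 3 under 9 of the alternatives. They were 2 without any 1 received library, where KLF6 was not past it. Without any 1 library, genes called over the whole table ranged from 604 to 1356 higher and from 691 to 1579 lower, and no low-count filter gave 2084 lower. Counts of list genes with 1 library left out ranged as follows: for the MEK5-ERK5-MEF2 pathway 0 to 1 higher and 2 to 6 lower, for cofactors and ligases 0 to 2 higher and 1 to 5 lower, for genes induced by KLF2 or KLF4 1 to 3 higher, for genes repressed by KLF2 1 to 2 lower, for immediate early genes 1 to 3 higher and 0 to 2 lower, and for glucocorticoid targets 1 to 2 lower. Scaling by library size alone gave 2 higher genes in the pathway list and 2 among cofactors. DESeq2 gave 1 higher immediate early gene. No low-count filter gave 2 lower genes each among genes repressed by KLF2, immediate early genes and glucocorticoid targets. Beyond the values above, the cause of each shift was not tested.

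With the replicate number as a block (replicate block), 1252 genes were higher and 1384 lower, KLF2 had a log2 fold change of -1.28, and 2 immediate early genes and 2 glucocorticoid targets were lower. Same-numbered libraries deviated together with r = -0.20, -0.07 and 0.05. No library correlated best with its own number, so the numbers are not taken to pair the samples. KLF13, at 38 to 102 counts a library, and the untested family members are limited by depth. The standard errors of KLF4, KLF9 and KLF11 could also hide a difference as small as that of KLF6.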

Other observations

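The count tables also hold 13 non-coding or pseudogene rows named after KLF genes, chosen after their values were seen. Of these, 8 had 0 counts in all libraries, among them KLF2P1, KLF2P2, KLF2P3 and KLF2P4, so no reads were counted to a named KLF2 pseudogene. KLF17P2, a pseudogene row, had 9, 18 and 9 counts in not-received replicates 1, 2 and 3 and 2, 2 and 3 counts in received replicates 1, 2 and 3, or 0.396 to 0.489 against 0.0930 to 0.167 CPM. It was below the filter and not tested, and the protein-coding KLF17 stood at 1.77 to 2.44 against 1.44 to 2.17 CPM, with overlap. KLF3-AS1, antisense to KLF3, had 0 to 9 counts a library, beside 556 to 1541 for KLF3.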
